A study of Mus musculus with 6 samples.

Results

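Granulosa cells, which surround and nourish the oocyte in each follicle, hold their identity through a small set of transcription factors, and the levels of 10 of these are described here: Foxl2, Gata4, Gata6, Wt1, Runx1, Runx2, Foxo1, Lhx9, Zfpm2 and Sox9. They were taken by gene symbol from a deposited table of 54532 genes, nuclear receptors left out, and all 10 were found in it. RNA was sequenced from mouse ovarian granulosa cells labelled WT, in 3 libraries exposed to cyclophosphamide for 24 h and 3 untreated libraries. Cyclophosphamide is an alkylating chemotherapy drug that needs metabolic activation, and its addition to cultured cells is the study's model of premature ovarian failure. The drug went onto cells after a period of adherent culture according to the treatment protocol, whereas the treatment label of the same samples names an intraperitoneal injection. The labels read here give no dose, strain or animal age, and nothing states that replicates came from separate cultures or animals, so p-values measure only the spread between these libraries, which may be technical.

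FOXL2, a forkhead protein, maintains the granulosa state in the adult mouse ovary, where its loss lets SOX9, the factor that drives the Sertoli cell programme of the testis, be made in its place. GATA4, its cofactor ZFPM2 (FOG2), WT1 and LHX9 act earlier, in the gonadal ridge that can become either sex, and RUNX1 supports the female pathway of the supporting cells in the fetal mouse ovary. FOXO1 is a forkhead factor of the growing follicle, kept out of the nucleus by insulin and FSH signalling, and RUNX2 is induced in granulosa cells around ovulation and is best known from bone.

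Depth lay between 16458385 and 17607586 reads per library, and between 20940 and 21920 genes had a read in each. Across genes, log2 values of libraries correlated at 0.987 to 0.991 within a group and at 0.899 to 0.910 between groups. The granulosa label was checked against 12 markers, which include Foxl2, itself 1 of the 10 factors and among those that fell. Of the 12 markers 10 were tested, 2 rose and 8 fell, with a summed level of 1110 to 1415 FPKM with cyclophosphamide and 2797 to 2957 FPKM without. Most of that sum was Inha, the alpha subunit of inhibin, at 905 FPKM (fragments counted, scaled to gene length and to library size) with cyclophosphamide and 1984 FPKM in untreated cells. Amh had 22 and 16 reads over the 3 libraries of each group and the aromatase gene Cyp19a1 had 1 and 3. The pan-leukocyte gene Ptprc had 7 reads with cyclophosphamide and 9 in untreated cells. Of 3 endothelial markers tested Esam rose, with 267 reads with cyclophosphamide and 38 without, and Tek and Cdh5 did not pass, and the summed level of the 8 listed was 2.10 to 2.69 FPKM with cyclophosphamide and 0.756 to 1.01 FPKM without. Of 3 oocyte markers tested Gdf9, with 253 reads with cyclophosphamide and 41 without, and Ooep rose, and the summed level of the 11 listed was 3.33 to 4.95 FPKM with cyclophosphamide and 0.936 to 1.37 FPKM without. Of 8 smooth muscle and pericyte markers tested 2 rose and 5 fell. The summed level of the 9 listed was 15.8 to 26.3 FPKM with cyclophosphamide and 89.9 to 101 FPKM without. Of 7 theca and stroma markers tested 2 rose and 3 fell. The summed level of the 12 listed was 24.0 to 28.5 FPKM with cyclophosphamide and 32.6 to 38.9 FPKM without. Over all genes tested 33.1% rose and 35.8% fell. The part of such cells in the results below was not tested. In bulk RNA, fewer cells of a type and less RNA per cell cannot be told apart.

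RefSeq promoter windows on GRCm38.p6, 250 bases before to 50 after a start site, were at hand for 5 of the 10 factors, Foxl2, Foxo1, Lhx9, Runx1 and Runx2, with Runx1 having an upstream and a downstream start. The RUNX windows are printed because Runx1 was the factor that rose, while its paralog Runx2 did not pass the test. Capitals mark the RUNX motif TGTGGT read on either strand, here always as its reverse complement.
Runx1 upstream start, chr16:92826025-92826324, minus strand: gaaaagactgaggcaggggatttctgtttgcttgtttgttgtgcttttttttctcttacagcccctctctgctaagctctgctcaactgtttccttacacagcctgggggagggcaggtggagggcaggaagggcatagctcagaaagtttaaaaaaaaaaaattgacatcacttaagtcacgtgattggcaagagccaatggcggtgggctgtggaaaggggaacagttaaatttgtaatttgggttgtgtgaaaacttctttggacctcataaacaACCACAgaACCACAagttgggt
Runx1 downstream start, chr16:92697280-92697579, minus strand: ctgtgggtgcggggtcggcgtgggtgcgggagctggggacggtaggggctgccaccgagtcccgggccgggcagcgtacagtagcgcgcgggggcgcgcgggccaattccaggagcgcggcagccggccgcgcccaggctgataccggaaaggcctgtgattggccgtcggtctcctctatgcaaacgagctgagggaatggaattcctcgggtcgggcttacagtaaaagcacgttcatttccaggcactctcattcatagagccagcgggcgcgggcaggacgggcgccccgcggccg
Runx2, chr17:44814578-44814877, minus strand: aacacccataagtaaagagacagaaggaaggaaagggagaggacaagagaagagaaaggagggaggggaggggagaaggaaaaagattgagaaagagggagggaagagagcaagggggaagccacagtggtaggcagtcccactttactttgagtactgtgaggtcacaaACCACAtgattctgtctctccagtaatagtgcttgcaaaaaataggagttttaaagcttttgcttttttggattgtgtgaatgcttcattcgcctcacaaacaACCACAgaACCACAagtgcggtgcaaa

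The upstream Runx1 window held the motif 2 times, 29 and 37 bases after the start site, and the Runx2 window held it 3 times, 80 bases before and 24 and 32 bases after. The downstream Runx1 window held none. Of 32851 promoter windows in the RefSeq table, 16.8% held the motif at least once, 1.81% at least 2 times and 0.183% at least 3 times. The longest run that the upstream Runx1 window and the Runx2 window share is 22 bases long, spans 2 motif copies and occurs in 2 of the 32851 windows, those of these genes.
Shared run of Runx1 and Runx2: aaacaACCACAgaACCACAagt
The gene-level values do not separate transcripts from the 2 Runx1 starts, so which start carried the RNA measured was not tested. A motif match describes letters in a window and shows no binding.

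The Foxl2 window is printed for another reason: a noncoding gene, Foxl2os, lies on the opposite strand with its RefSeq start 297 bases from the RefSeq Foxl2 start, so that the promoter windows overlap. The deposited table starts Foxl2 at 98955288, before the RefSeq start at 98955607, so the window lies inside the gene as that table places it. Capitals mark the 204 bases that also lie in the promoter window of Foxl2os.
Foxl2, chr9:98955357-98955656, plus strand: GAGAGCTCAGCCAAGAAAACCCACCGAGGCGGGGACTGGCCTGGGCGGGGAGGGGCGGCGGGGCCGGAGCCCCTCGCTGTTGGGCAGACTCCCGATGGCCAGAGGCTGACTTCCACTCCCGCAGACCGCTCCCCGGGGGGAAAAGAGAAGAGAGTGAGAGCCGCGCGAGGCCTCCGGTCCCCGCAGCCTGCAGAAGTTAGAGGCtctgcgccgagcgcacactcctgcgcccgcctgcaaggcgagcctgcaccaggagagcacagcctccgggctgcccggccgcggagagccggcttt
Its GC content was 71.3%, against a median of 52.7% over all windows, and it held none of the motifs searched on both strands. Beside the RUNX motif these were the letters GATA with an A or T before them and an A or G behind them, found in 29.8% of all windows, the forkhead motif TGTTTAC, found in 3.65%, the SOX motif ACAAAG, found in 18.7%, the TATA box as TATAAA, found in 13.6%, and the NR5A motif AAGGTCA, found in 4.72%. These motifs were also absent from the Foxo1 window and from the downstream Runx1 window. The Lhx9 window held 1 GATA match and 2 SOX matches.

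All 10 factors passed the filter on low values and were tested. Each gene was compared with limma on log2(FPKM + 0.1), with p-values adjusted by the Benjamini-Hochberg method over 14885 genes and a threshold of 0.05. With cyclophosphamide 7 of the 10 factors changed, 1 higher and 6 lower, and 68.9% of all genes tested were called, 33.1% higher and 35.8% lower, so the number called is near the background. At least 2-fold changes were found for 4 factors, Runx1 higher and Foxo1, Lhx9 and Zfpm2 lower, and for 26.6% of all genes. The median log2 fold change of the 10 was -0.40, beside -0.02 over all genes tested. Values of the groups did not overlap for 8 factors, 7 lower and 1 higher, beside 73.1% of all genes, 37.8% lower and 35.3% higher. Of 952 tested genes that the table assigns to a transcription factor family, 69.9% were called, 43.4% higher and 26.5% lower, with a median of 0.19.

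**Figure D1:**
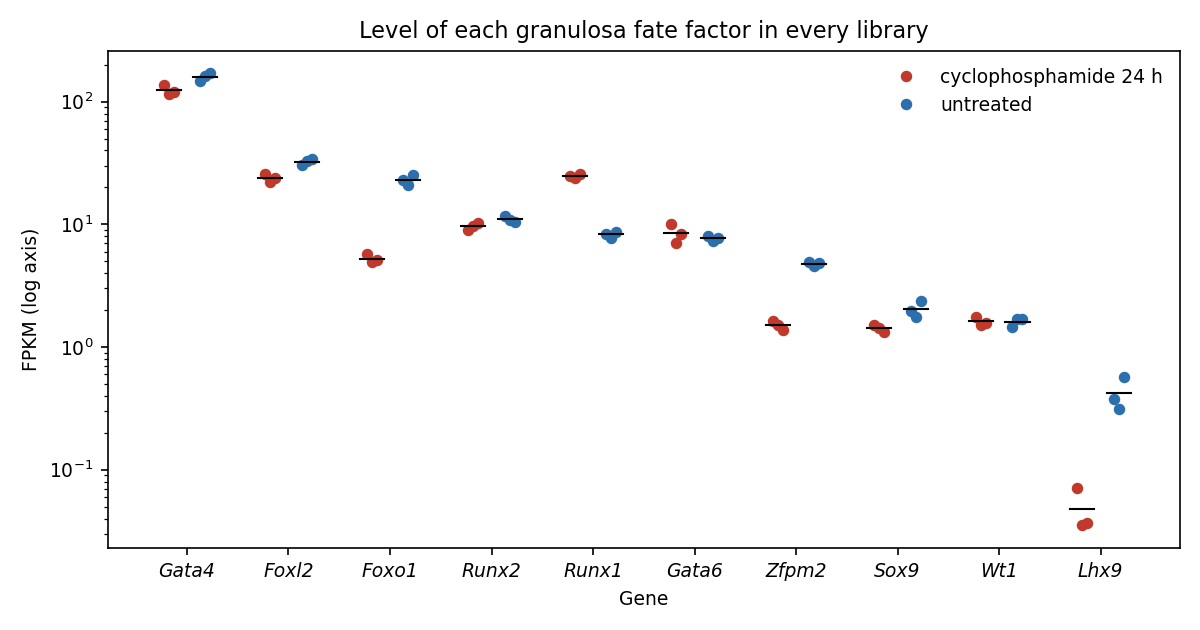
FPKM of each factor on a log axis in the 3 cyclophosphamide and 3 untreated libraries (points) with group means (bars), ordered by untreated level. Runx1 was above Foxo1 with cyclophosphamide (24.7 and 5.25 FPKM) and below it in untreated cells (8.29 and 23.1 FPKM).

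In level per gene length, Gata4 stood far above the rest in both groups. It made up 60.5% to 63.1% of the summed FPKM of the 10 factors in cyclophosphamide libraries and 61.9% to 64.6% in untreated ones. Among 1245 genes with a transcription factor family and at least 1 read, Gata4 ranked 10th with cyclophosphamide and 4th in untreated cells. With cyclophosphamide the order of mean levels was Gata4, Runx1, Foxl2, Runx2, Gata6, Foxo1, Wt1, Zfpm2, Sox9 and Lhx9. In that order Runx1 and Foxl2, Runx2 and Gata6, Wt1 and Zfpm2, and Zfpm2 and Sox9 had overlapping ranges. In untreated cells the order was Gata4, Foxl2, Foxo1, Runx2, Runx1, Gata6, Zfpm2, Sox9, Wt1 and Lhx9, and only the neighbours Runx1 and Gata6 overlapped. Runx1 thus ranked 100th among transcription factor genes with cyclophosphamide and 291st without, and Foxo1 455th with cyclophosphamide and 87th without.

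Both forkhead factors fell, Foxl2 by a small and Foxo1 by a large amount. Foxl2 (ENSMUSG00000050397, chromosome 9, 98955288 to 98958543, read as GRCm38 here and below because nearly all of the table's positions equal those of an annotation on that build, although the processing notes name GRCm39) had 25.5, 22.2 and 23.9 FPKM in the cyclophosphamide libraries, against 30.7, 32.6 and 34.2 FPKM in the untreated ones. Every treated library lay below every untreated one, although the nearest values, 25.5 and 30.7 FPKM, were not far apart. The log2 fold change was -0.45 ± 0.07 (SE; adjusted p = 8.84e-04, limma). Foxl2os, which shares 12 exonic bases with Foxl2, fell as well, with 4.67, 5.27 and 5.55 FPKM with cyclophosphamide against 7.51, 8.40 and 7.30 FPKM without, a log2 fold change of -0.58 ± 0.10 (adjusted p = 0.00110, limma). Whether counting used the strand is unknown from the labels, so reads in the shared bases cannot be told apart.

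Foxo1 (ENSMUSG00000044167, chromosome 3, 52268336 to 52353221) had the largest log2 fold change of the 10 on the log2(FPKM + 0.1) scale, while by group means and in limma-voom that of Lhx9 was larger. It had 5.73, 4.94 and 5.08 FPKM with cyclophosphamide, against 22.9, 20.9 and 25.4 FPKM in untreated cells. The highest treated value was far below the lowest untreated one. Its log2 fold change was -2.11 ± 0.10 (adjusted p = 1.58e-06, limma), or 4.39-fold lower by the group means. Its relatives moved both ways. Foxo3, which restrains the growth of oocytes in primordial follicles, rose by 0.99 ± 0.08 on the log2 scale, with 41.4 ± 3.80 FPKM with cyclophosphamide and 20.7 ± 0.534 FPKM without (SD, n = 3 each). Foxo6 fell like Foxo1, by 1.51 on the log2 scale (SE 0.10), and Foxo4 had a small log2 fold change of -0.18 ± 0.06 (adjusted p = 0.0316, limma). In level, Foxo3 was thus the highest of these genes with cyclophosphamide, while its range overlapped that of Foxo1 in untreated cells.

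The GATA factors drive genes of the early gonad and of steroid and inhibin production. Gata4 (ENSMUSG00000021944, chromosome 14, 63198922 to 63271692) had 136, 116 and 119 FPKM with cyclophosphamide, against 147, 161 and 170 FPKM without. The groups did not overlap, and replicate 1 of the cyclophosphamide group came nearest to the untreated cells. The log2 fold change was -0.36 ± 0.09 (adjusted p = 0.00814, limma). Gata6 (ENSMUSG00000005836, chromosome 18, 11052508 to 11085635, with a start that differs from that annotation), which can stand in for Gata4 in mouse granulosa cells, had 10.00, 7.10 and 8.37 FPKM with cyclophosphamide and 8.02, 7.35 and 7.80 FPKM without. Its groups overlapped, and its log2 fold change of 0.12 ± 0.12 did not pass the test (adjusted p = 0.404, limma). That positive value rests on replicate 1 of the cyclophosphamide group, without which it was -0.00. Of the other GATA genes, Gata3 had a log2 fold change of -0.21 ± 0.14 (adjusted p = 0.221, limma), and Gata1, Gata2 and Gata5 were below the filter with 4, 21 and 0 reads with cyclophosphamide and 4, 5 and 6 reads without.

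Zfpm2 (ENSMUSG00000022306, chromosome 15, 40655035 to 41104592) encodes the zinc finger partner of GATA4, and the GATA4 and FOG2 pair is needed for normal gonad development in mice. It had 1.62, 1.52 and 1.38 FPKM with cyclophosphamide, against 4.89, 4.57 and 4.83 FPKM without. Treated libraries sat in a narrow band below the untreated ones, and the log2 fold change was -1.60 ± 0.11 (adjusted p = 9.28e-06, limma). Its paralog Zfpm1 (FOG1), best known as a GATA partner in blood cells, rose by 1.17 ± 0.06, with 25.8 ± 1.09 FPKM with cyclophosphamide and 11.4 ± 0.426 FPKM without (SD, n = 3 each; adjusted p = 3.32e-06, limma). Per length, Zfpm1 was above Zfpm2 in both groups.

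The early gonadal factors Wt1 and Lhx9 differed from each other. Wt1 (ENSMUSG00000016458, chromosome 2, 105126529 to 105173616), a zinc finger factor of the gonadal ridge, kidney and mesothelium, had 1.77, 1.51 and 1.57 FPKM with cyclophosphamide and 1.47, 1.68 and 1.68 FPKM without. The ranges of the groups overlapped, and the log2 fold change of 0.01 ± 0.13 did not pass the test (adjusted p = 0.973, limma). Its sign turned under upper-quartile scaling (-0.07). Lhx9 (ENSMUSG00000019230, chromosome 1, 138825186 to 138848577), a LIM homeobox factor of the gonadal ridge, was close to the limit of detection, with 11, 6 and 6 reads with cyclophosphamide against 59, 52 and 91 reads without. These counts correspond to 0.0704, 0.0353 and 0.0366 FPKM against 0.380, 0.314 and 0.567 FPKM, and the groups lay well apart. Its log2 fold change was -1.80 ± 0.23 (adjusted p = 2.45e-04, limma), a size that depends on the pseudocount and the method: it was -0.44 with a pseudocount of 1, -0.74 with a pseudocount of 0.5 and -3.08 in limma-voom on the recovered reads. The other LIM homeobox genes listed, Lhx1, Lhx2, Lhx4, Lhx6 and Lhx8, had at most 8 reads per group and were not tested.

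Because WT1 also marks mesothelium and surface epithelium, markers of those cells stand beside it. Of 7 tested, 0 rose and 6 fell, beside 33.1% higher and 35.8% lower of all genes tested. Msln did not pass (-0.07 ± 0.28, adjusted p = 0.831, limma). The summed level of the 11 listed was 50.4 to 74.0 FPKM with cyclophosphamide and 109 to 122 FPKM without. Most of it came from 2 keratin genes, Krt8 (means of 23.0 and 51.1 FPKM) and Krt18 (35.7 and 60.7 FPKM). Upk3b, Krt7 and Msln had 13, 7 and 66 reads with cyclophosphamide and 124, 33 and 69 reads without. The part of these cells in the Wt1 value was not tested.

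The RUNX genes parted. Runx1 (ENSMUSG00000022952, chromosome 16, 92601466 to 92826149) had 24.6, 23.8 and 25.8 FPKM with cyclophosphamide, against 8.35, 7.80 and 8.70 FPKM without. It was the only factor of the 10 that rose, with every treated library far above every untreated one. Its log2 fold change was 1.57 ± 0.07 (adjusted p = 1.46e-06, limma), or 2.98-fold by the group means. Runx2 (ENSMUSG00000039153, chromosome 17, 44495987 to 44814797) had 9.06, 9.67 and 10.2 FPKM with cyclophosphamide and 11.7, 10.9 and 10.5 FPKM without. Its groups did not overlap, yet the log2 fold change of -0.20 ± 0.08 missed the threshold at adjusted p = 0.0504 (limma). Under upper-quartile scaling it passed (-0.28, adjusted p = 0.0161, limma). Under scaling to total reads it was further from the threshold (-0.15, adjusted p = 0.158, limma). Runx3 had 2 reads with cyclophosphamide and 1 without, so the Runt family rested on these 2 genes in both conditions.

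The ratio between the RUNX genes, taken within each library, did not overlap between the groups. The ratio of Runx2 to Runx1 FPKM was 0.369, 0.406 and 0.394 with cyclophosphamide, against 1.40, 1.40 and 1.21 without. The mean log2 ratio was -1.36 ± 0.07 with cyclophosphamide and 0.42 ± 0.13 without (SD, n = 3 each), a difference of -1.78 with an exact two-sided permutation p of 0.10, the smallest that 3 against 3 libraries can give (0.15 adjusted over 3 ratios). CBFB, the partner that RUNX proteins need to bind DNA stably, was made from a gene with a log2 fold change of 0.18 ± 0.06 (adjusted p = 0.0250, limma), at 37.0 ± 1.24 FPKM with cyclophosphamide and 32.7 ± 0.965 FPKM without (SD, n = 3 each). An antisense gene inside Runx1, Gm26626, had 32, 39 and 38 reads with cyclophosphamide and 4, 2 and 4 reads without (log2 fold change 3.01 ± 0.22; adjusted p = 1.27e-05, limma). It shares 106 exonic bases with Runx1, of its own 796, and without the strand reads in the shared bases cannot be told apart. Supt3, which overlaps the upstream end of Runx2 with 0 shared exonic bases, did not pass the test (-0.19 ± 0.17; adjusted p = 0.349, limma), nor did 1010001N08Rik at the start of Gata6 (-0.16 ± 0.21; adjusted p = 0.529, limma). Of 13 genes that overlap a factor these 4, with Foxl2os and Gm26626, were the ones tested, and Gata4, Sox9, Wt1 and Lhx9 have none.

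Runx1 is also a factor of blood cells, so macrophage markers stand beside its rise. Of 4 tested, Csf1r (log2 fold change 1.93 ± 0.11), Cd68 and Cd14 rose and Lyz2 fell. Of all genes tested 33.1% were higher and 35.8% lower. The summed level of the 11 listed markers was 11.6 to 15.5 FPKM with cyclophosphamide and 7.61 to 8.58 FPKM without. Of the listed markers not tested, C1qa, C1qb, C1qc, Tyrobp and Ptprc had 2, 1, 4, 3 and 7 reads with cyclophosphamide and 10, 8, 16, 7 and 9 reads without. The part of such cells in the Runx1 value was not tested.

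**Figure D2:**
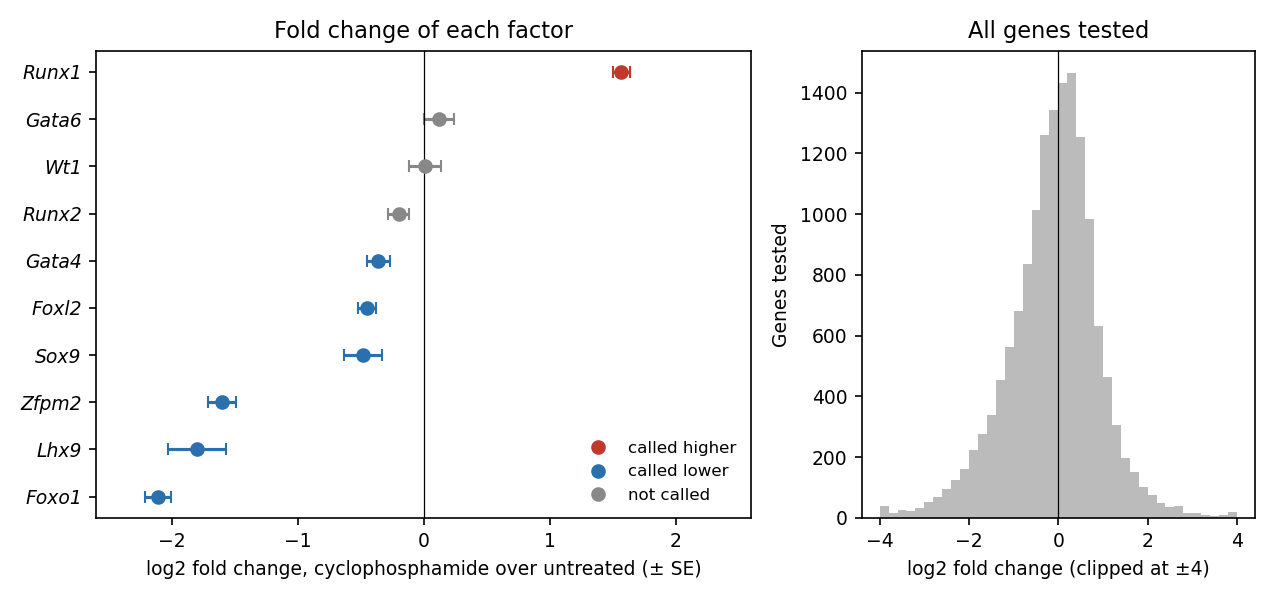
Left, log2 fold change of each factor, cyclophosphamide over untreated, with its SE, in red where called higher, blue where called lower and grey where not called. Right, the same quantity for the 14885 genes tested (number of genes, clipped at 4), whose median was -0.02, beside -0.40 for the 10 factors.

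Sox9, the Sertoli factor, did not rise. Sox9 (ENSMUSG00000000567, chromosome 11, 112782224 to 112787760) had 1.51, 1.43 and 1.32 FPKM with cyclophosphamide, against 1.95, 1.75 and 2.39 FPKM without, from 94 to 106 reads per cyclophosphamide library and 126 to 167 per untreated one. The groups did not overlap but lay close, with 1.51 and 1.75 FPKM as the nearest values. The log2 fold change was -0.48 ± 0.15 (adjusted p = 0.0229, limma), a call that was lost without replicate 3 of the cyclophosphamide group (adjusted p = 0.0725), without untreated replicate 1 (0.0501) or without untreated replicate 3 (0.0916). The ratio of Sox9 to Foxl2 was 0.0593, 0.0645 and 0.0551 with cyclophosphamide and 0.0636, 0.0535 and 0.0699 without. These ratios overlapped between groups, and their mean log2 difference was -0.06 (exact two-sided permutation p = 0.80), with a sign that turned at a pseudocount of 1 (0.11). For comparison the ratio of Gata6 to Gata4 was 0.0733, 0.0612 and 0.0704 with cyclophosphamide and 0.0546, 0.0458 and 0.0460 without, groups that did not overlap (log2 difference 0.49, exact permutation p = 0.10, the smallest possible here, and 0.15 adjusted over 3 ratios).

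Of 27 close relatives of the factors listed, 10 were tested, 3 rose and 4 fell, beside 33.1% higher and 35.8% lower of all genes tested. The fold changes of Sox8 and Sox5 were larger than that of Sox9. Sox8, which acts beside Sox9 in the mouse testis, averaged 0.899 ± 0.206 FPKM with cyclophosphamide and 4.02 ± 0.165 FPKM without (SD, n = 3 each), a log2 fold change of -2.06 ± 0.17 (adjusted p = 2.42e-05, limma). Sox5, which works with Sox9 in cartilage, had 0.148, 0.120 and 0.169 FPKM against 4.30, 4.26 and 4.70 FPKM, a log2 fold change of -4.21 ± 0.15 (adjusted p = 6.51e-07, limma). Sox13 rose by 1.06 ± 0.16 on the log2 scale (adjusted p = 5.17e-04, limma). Sox4, at 120 ± 6.69 FPKM with cyclophosphamide and 134 ± 7.96 FPKM without (SD, n = 3 each), had the highest level of the SOX genes listed and did not pass the test (-0.16 ± 0.08; adjusted p = 0.106, limma), nor did Sox12 (0.20 ± 0.08, 0.0611).

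By the families the deposited table assigns, the factors sat among genes that moved both ways. So did all genes tested, of which 33.1% were higher and 35.8% lower. Of 19 forkhead genes tested 9 rose and 6 fell (median 0.03), with Foxo1 the lowest. Of 10 genes under the GATA zinc finger label 2 rose and 4 fell (median -0.16), of 32 HMG-box genes 10 rose and 11 fell (median -0.09), of 54 homeobox genes 13 rose and 21 fell (median -0.10) and of 450 C2H2 zinc finger genes 192 rose and 97 fell (median 0.19). Foxq1 and Gm5294 were the highest forkhead genes, at 3.27 ± 0.18 and 3.94 ± 0.21 on the log2 scale, and these were named after their values were seen. Foxq1 averaged 0.0607 FPKM in untreated cells and Gm5294 0.120 FPKM, so their fold changes depend on the pseudocount.

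**Figure D3:**
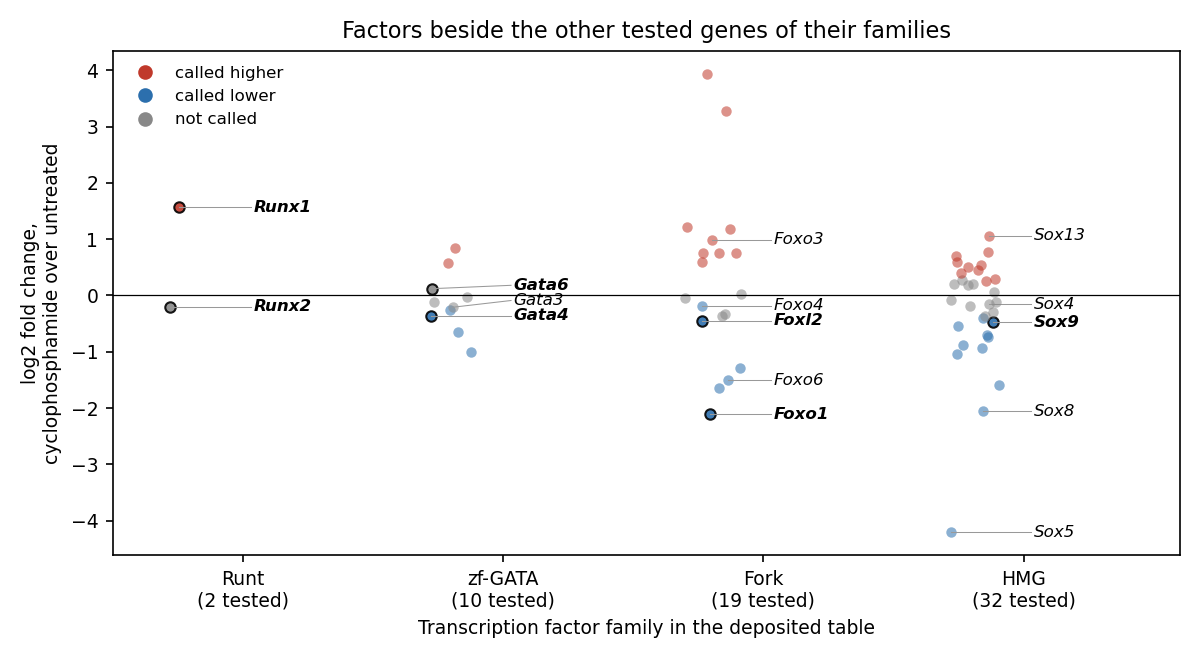
Log2 fold change, cyclophosphamide over untreated, of every tested gene in the 4 families that hold most of the factors (points, outlined and in bold for the 7 factors in them; red called higher, blue called lower, grey not called). Runx1 and Runx2 lie at 1.57 and -0.20, Foxo1 and Foxo3 at -2.11 and 0.99, and Sox5 at -4.21.

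The factors differ widely in genomic span, a property that moved with fold change across genes. Of 1798 protein-coding genes tested that span at least 100 kb, 16.5% were higher and 62.3% lower (median log2 fold change -0.66), beside 36.2% higher and 34.3% lower of 10967 shorter genes (median 0.02). Zfpm2, Runx2 and Runx1 span 450, 319 and 225 kb. Their log2 fold changes of -1.60, -0.20 and 1.57 were above those of 17.6%, 67.0% and 98.6% of these long genes. Foxo1 (84.9 kb), Gata4 (72.8 kb), Wt1 (47.1 kb), Gata6 (33.1 kb) and Lhx9 (23.4 kb) are shorter, and Sox9 and Foxl2 span 5.54 and 3.26 kb. The part of span in these changes was not tested.

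**Figure D4:**
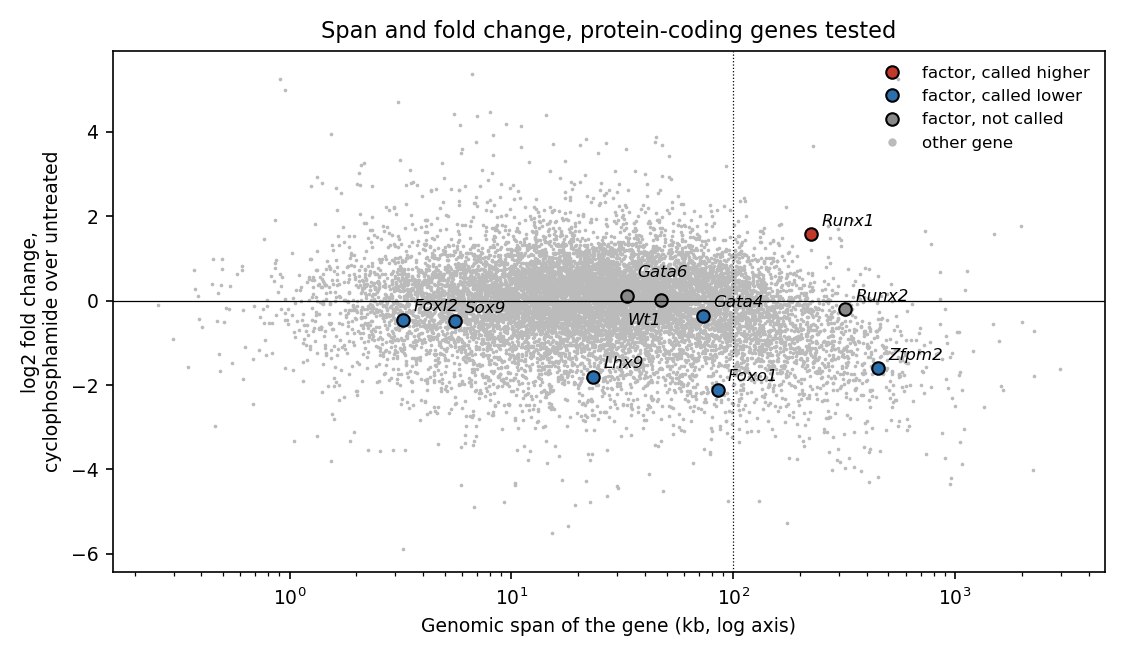
Genomic span (kb, log axis) against log2 fold change, cyclophosphamide over untreated, for protein-coding genes tested (grey) and the 10 factors (outlined, red called higher, blue called lower, grey not called), with a dotted line at 100 kb. Runx1 lies above 98.6% and Zfpm2 above 17.6% of the genes that span at least 100 kb.

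Cofactors and other gonad factors moved in both directions, as did all genes tested, of which 33.1% were higher and 35.8% lower. Of 24 cofactors tested 11 rose and 7 fell (median 0.14). Tle3, a corepressor that RUNX and forkhead proteins recruit, rose by 1.91 ± 0.06, and the acetyltransferase gene Kat2b had a log2 fold change of -1.65 ± 0.09. Cbfa2t3, which encodes a corepressor of the ETO family, fell to 1.40 ± 0.443 FPKM with cyclophosphamide, against 16.7 ± 0.590 FPKM in untreated cells (SD, n = 3 each; log2 fold change -3.52 ± 0.20; adjusted p = 3.57e-06, limma). Cited2, a coactivator that works with WT1 in the mouse gonad, had a log2 fold change of -1.08 ± 0.15, while Wtap, whose protein binds WT1, did not pass the test (-0.05 ± 0.08; adjusted p = 0.621, limma). Of the LIM cofactors, Ldb1 did not pass (-0.00 ± 0.06; adjusted p = 0.983, limma) and Ssbp3 fell (-1.01 ± 0.09). Among 16 other gonad factors and their signals 6 rose and 6 fell (median 0.01). Emx2, a homeobox gene that the mouse gonadal ridge requires, fell (-1.53 ± 0.09), as did Bnc2 (-2.86 ± 0.13), whereas Irx3 and Irx5, homeobox genes of mouse granulosa cells, rose by 1.81 ± 0.11 and 1.56 ± 0.13.

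Of 16 follicle genes tested 13 were lower and 3 higher (median -1.56), and of 16 Sertoli and testis genes 14 were lower and 1 higher (median -1.62), beside 35.8% lower and 33.1% higher of all genes. The testis list included Cyp26b1, which breaks down retinoic acid, at 5.16 ± 1.73 FPKM with cyclophosphamide and 139 ± 4.78 FPKM without (SD, n = 3 each; log2 fold change -4.78 ± 0.19), Nedd9 (-2.71 ± 0.10) and the signal genes Dhh (-1.75 ± 0.15) and Fgf9 (-1.12 ± 0.26), several of which granulosa cells also express. Aard was the member that rose (0.79 ± 0.19), and Gatm did not pass (0.15 ± 0.09; adjusted p = 0.155, limma). Dmrt1, which guards male fate in the mouse testis, and Sry had 0 reads in every library. In the follicle list Bmpr1b, a BMP receptor gene, and Inhba, the activin beta A subunit gene, had log2 fold changes of -3.73 ± 0.12 and -2.67 ± 0.09, and the 3 that rose were Star, Kitl and Nr5a1. Among 12 genes of the ovarian pathway around WNT signalling 1, Irx3, rose and 6 fell (median -0.30). Ctnnb1, beta-catenin, had a log2 fold change of -1.07 ± 0.10 and Dkk3 one of -1.62 ± 0.09. Wnt4 did not pass (0.21 ± 0.10; adjusted p = 0.0889, limma), and Rspo1 was below the filter with 7 reads with cyclophosphamide and 32 without.

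Genes that earlier work assigns to FOXL2 and FOXO factors were read beside the factors themselves. The FOXL2 list mixes genes that the factor raises with genes it lowers. Of 17 tested 7 rose and 9 fell (median -0.65), beside 33.1% higher and 35.8% lower of all genes tested. Whether each gene moved in the direction that a lower Foxl2 would give was not tested. Star averaged 768 ± 191 FPKM with cyclophosphamide and 41.1 ± 0.588 FPKM without (SD, n = 3 each), Ptgs2 rose by 3.03 ± 0.09 and Atf3 by 3.69 ± 0.09. Fst, the follistatin gene, fell (-2.76 ± 0.18), and Esr2, oestrogen receptor beta, fell (-2.99 ± 0.13). The steroidogenic gene Cyp11a1 and the cyclin gene Ccnd2 of the same list fell as well, with log2 fold changes of -1.90 ± 0.29 and -0.48 ± 0.07. Of 26 FOXO targets tested 14 rose and 10 fell (median 0.26), while Foxo1 fell. Klf4, Gadd45a and the death gene Bcl2l11 rose by 2.64 ± 0.09, 2.72 ± 0.10 and 1.55 ± 0.14, and Txnip, Sesn3 and the cell cycle inhibitor gene Cdkn1b had log2 fold changes of -1.86 ± 0.07, -1.56 ± 0.11 and -0.89 ± 0.10. Many of these genes answer to other stress factors as well. Of 8 cartilage and bone genes, which SOX9 and RUNX2 drive in the skeleton, 2 rose and 3 fell (median -0.29), with Col11a1 at -1.80 ± 0.09 and Col10a1 at -2.81 ± 0.17.

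**Figure D5:**
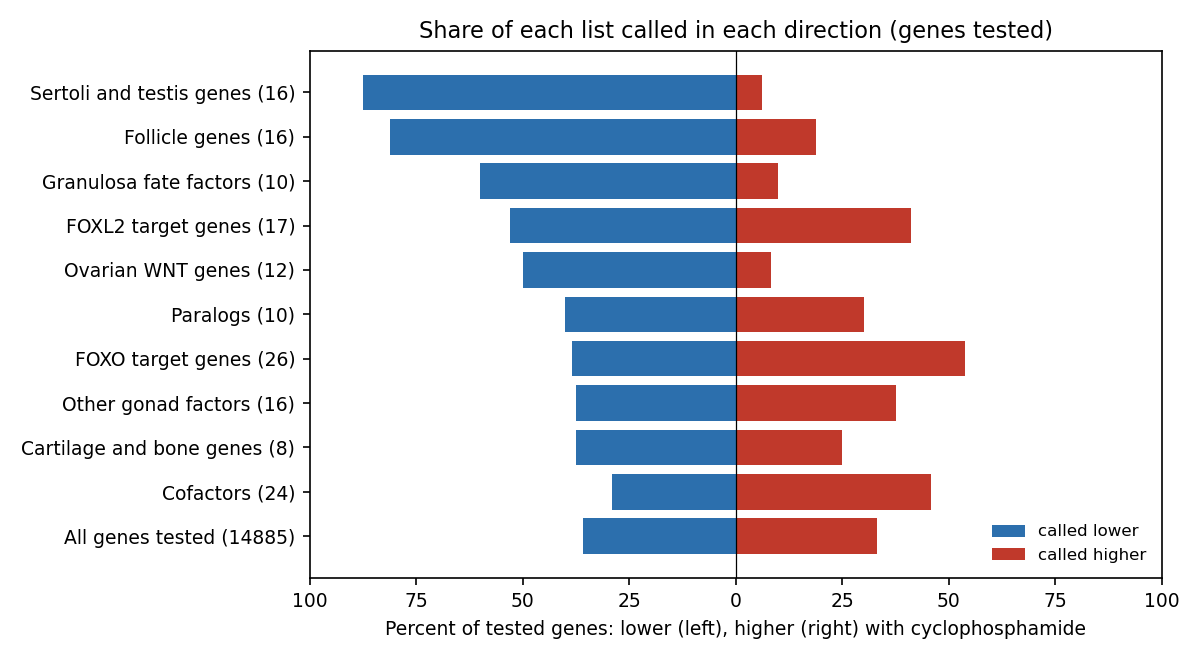
Percent of the tested genes of each list called lower (blue, to the left) and higher (red, to the right) with cyclophosphamide, number tested in parentheses. Of 16 Sertoli and testis genes 14 were lower and of 16 follicle genes 13, beside 35.8% of all genes tested.

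Genes with the most similar pattern were taken from 7517 protein-coding genes with a mean of at least 5 FPKM, by the root mean square distance of centred log2 values over the 6 libraries. The nearest to Foxl2 were Mcrs1 and Prkaca, the catalytic subunit gene of protein kinase A, at distances of 0.02, and the nearest to Gata4 were Pgk1 and Hyal2 at 0.04. Ypel5 and Mreg were nearest to Runx1 (0.04 each), with log2 fold changes of 1.55 and 1.52. St3gal4 and Pcca were nearest to Foxo1 (0.06 each), Loxl3 and Gpd2 to Zfpm2 (0.04 each) and Zfp422 and Crat to Sox9 (0.07 and 0.08). The nearest to Gata6 were Arcn1 and Snap29, to Wt1 Pfdn1 and Aamp, and to Runx2 Slc12a2 and Sdhaf2. Lhx9 had no gene nearer than 0.13, the distance of Hmgn5. With 2 groups of libraries such likeness mostly repeats the size of the fold change.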

How the data were processed

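Polyadenylated RNA of 6 libraries was measured. The deposited table, although named as raw counts, holds FPKM made by the authors, as its values show. The tools named per the submitters' processing notes are HISAT2 2.0.5 and CASAVA, and the build named is GRCm39. For the counting tool and strand setting no source was found here. Multiplied by the gene length in bases that the deposited table gives (other than the FPKM the only numeric column used), 100% of values were whole multiples of 1 step, within 0.01 of a read, which gave the recovered reads (16458385 to 17607586 per library). Of 54409 gene IDs shared with GENCODE M21, 98.3% had equal start and end, 9 of the 10 factors among them (all but Gata6), so coordinates are read as GRCm38.

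Genes with 10 reads in at least 3 libraries and 15 in all (14885) entered limma (3.58.1, under R 4.3.3), two-sided and with variance moderated along mean level; values were log2(FPKM + 0.1), which understates the change of low genes. No count test was the main result, since the unit is FPKM. The fit was also run on simulated data in which few genes changed, unlike these data. That run therefore does not vouch for the calls or the scaling here. The group ratios were tested in scipy 1.17.1. The named genes are the 10 factors, tested relatives, the 2 called genes with the smallest p in each list (1 such gene is not reported here), overlapping genes and the 2 nearest in pattern. Other list genes named (such as Cbfb, Star, Emx2, Irx5 and Esr2) were picked with their values in view. The members and lists were chosen with earlier results of these data known, and lists overlap. Of 259 listed symbols, 1 was matched through a RefSeq synonym. No column of sample values was left out.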

Additional observations from a re-analysis of the deposited data

How the results depend on the processing

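Results were recomputed with the replicate number as a block, other scalings, pseudocounts of 0.5 and 1, no filter or a mean of at least 1 FPKM, limma-voom on recovered reads and each library left out; upper-quartile scaling of FPKM was added after seeing the data. Genes called numbered 8588 to 10451, beside 10257, and 9347 to 10141 with a library left out. The replicate block gave 9937 genes and 7 factors, and changed no call on a factor. Deviations of same-numbered libraries correlated at -0.08, 0.00 and -0.03, and no library correlated best with its own number. These values show no pairing by number, but 3 libraries per group cannot exclude it. Upper-quartile scaling, of reads or of FPKM, moved the median of all genes to -0.10 or -0.13 and the split to 4417 higher and 5820 lower or 4220 and 6003, beside 4932 and 5325. It turned Wt1 to -0.07 or -0.10 and brought Runx2 past the threshold at -0.28 or -0.31, as did the stricter filter (-0.20, adjusted p = 0.0475, limma). Runx2 stayed uncalled in every other alternative, with -0.15 under scaling to total reads (adjusted p = 0.158, limma). Sox9 lost its call without a filter (-0.48, adjusted p = 0.0550), where more genes were tested. With a library left out Sox9 ranged from -0.58 to -0.36, Wt1 from -0.06 to 0.05, Gata6 from -0.00 to 0.24 and the Sox9 to Foxl2 log2 ratio from -0.16 to 0.03. That ratio was 0.05 and 0.11 with pseudocounts of 0.5 and 1. The causes of the changes other than through fewer or more genes were not tested. Foxl2, Gata4, Runx1, Foxo1, Zfpm2 and, where its level passed the filter, Lhx9 kept direction and call in every alternative. Depth limits Lhx9, with 6 to 11 reads per cyclophosphamide library.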
